A study of Mus musculus with 8 samples.

Results

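Lipid droplets are the organelles in which cells keep triglyceride, and the 10 genes described here encode proteins that coat the droplet, empty it or restrain its emptying. They were chosen by name: the perilipins Plin1, Plin2, Plin3, Plin4 and Plin5, the droplet fusion protein Cidec, the lipases Pnpla2, Lipe and Mgll, and the lipase inhibitor G0s2. All 10 are among the 24552 genes of the deposited count table, and 8 of them were counted often enough for the test across all genes. The libraries came from exorbital lacrimal glands (LGs), which secrete the watery part of tears, of female C57BL/6J mice. Of 8 libraries, 4 were from mice fed ad libitum (AL) and 4 from mice on a 40% calorie restriction (CR) for 4 months, started at an age of 6 to 7 months, so that both groups were 10 to 11 months old. The study used a pair of cohorts with different chow. In the second, chow also differed between the diets, that of the CR mice holding 40% more vitamins and micronutrients. AL and CR libraries may thus differ in chow as well as in calories. The labels do not say from which cohort a library came or how long before collection a mouse had eaten. The series' design text counts its replicates as mice, so each library is taken as that of 1 mouse.

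In the textbook pathway, Pnpla2 (adipose triglyceride lipase) takes the first fatty acid off a stored triglyceride, Lipe (hormone-sensitive lipase) the next, and Mgll (monoglyceride lipase) the last. Abhd5 switches Pnpla2 on and G0s2 binds and blocks it, while Plin1 on the droplet surface of adipocytes holds Abhd5 back until protein kinase A phosphorylates Plin1 and Lipe. Plin2 and Plin3 coat droplets in most cell types, Plin4 and Plin5 are best known from fat and from oxidative tissues, and fasting is known to favour lipolysis in adipose tissue.

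RNA was read from the 3' ends of transcripts, and levels are given as CPM, counts scaled to a common library size with relative log expression (RLE) factors. Totals ranged from 12051881 to 22156511 counts per library, and 3 counts, taken as the floor of detection, correspond to between 0.152 and 0.231 CPM, for counting error only. The diets were compared with the quasi-likelihood test of edgeR, whose p-values were adjusted by Benjamini-Hochberg over 11211 genes. Called means an adjusted p under 0.05 together with a change of 1.5-fold or more. On these terms 222 genes, or 1.98% of those tested, were called, and 134, or 1.2%, were called higher in CR. Obp1a and Car6, listed here as lacrimal acinar markers, were abundant in every library but not level across them. Obp1a had 147750 to 163029 CPM in AL. In CR it had 58966 to 89888 CPM in replicates 1 to 3 and 152614 CPM in replicate 4. Car6 had 11777 to 28476 CPM in AL and 36509 to 82725 CPM in CR. The summed level of 8 acinar markers, which these 2 dominate, was 177688 to 182277 CPM in AL and 120006 to 192995 CPM in CR. That sum mixes opposite fitted changes, with log2 fold changes of -0.78 for Obp1a and 1.68 for Car6, neither called. Markers of other tissues were not evenly spread, and CR replicate 4 stood apart from the other CR libraries. The summed level of 12 adipocyte markers was 27.9 to 33.7 CPM in AL, 94.5, 75.7 and 115 CPM in CR replicates 1 to 3, and 32.2 CPM in CR replicate 4. That of 6 parotid gland transcripts was 237 to 23476 CPM in AL, 211052, 230166 and 183390 CPM in CR replicates 1 to 3, and 17876 CPM in CR replicate 4. Bpifa2 and Amy1 make up nearly all of that sum, and the other 4 transcripts, Prb1, Prh1, Prp2 and Prpmp5, were at 418, 360, 62.0 and 77.4 CPM in CR replicate 4, above every AL library (at most 90.4, 9.24, 1.23 and 27.0 CPM). In bulk tissue, more cells of a type and more RNA per cell cannot be told apart.

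Of the 8 lipid droplet genes tested, 1 was called, Pnpla2, which rose in CR. No other passed the adjusted threshold, and 2, Pnpla2 and Plin4, had an unadjusted p under 0.05, a level reached by 16.7% of all genes tested. In 6 of the 8 the fitted change was upward and in 2 it was downward, with a median log2 fold change of 0.45 beside 0.01 for all genes tested. In 0 of the 8 were the diet groups fully apart, as they were for 9.79% of all genes tested.

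**Figure D1:**
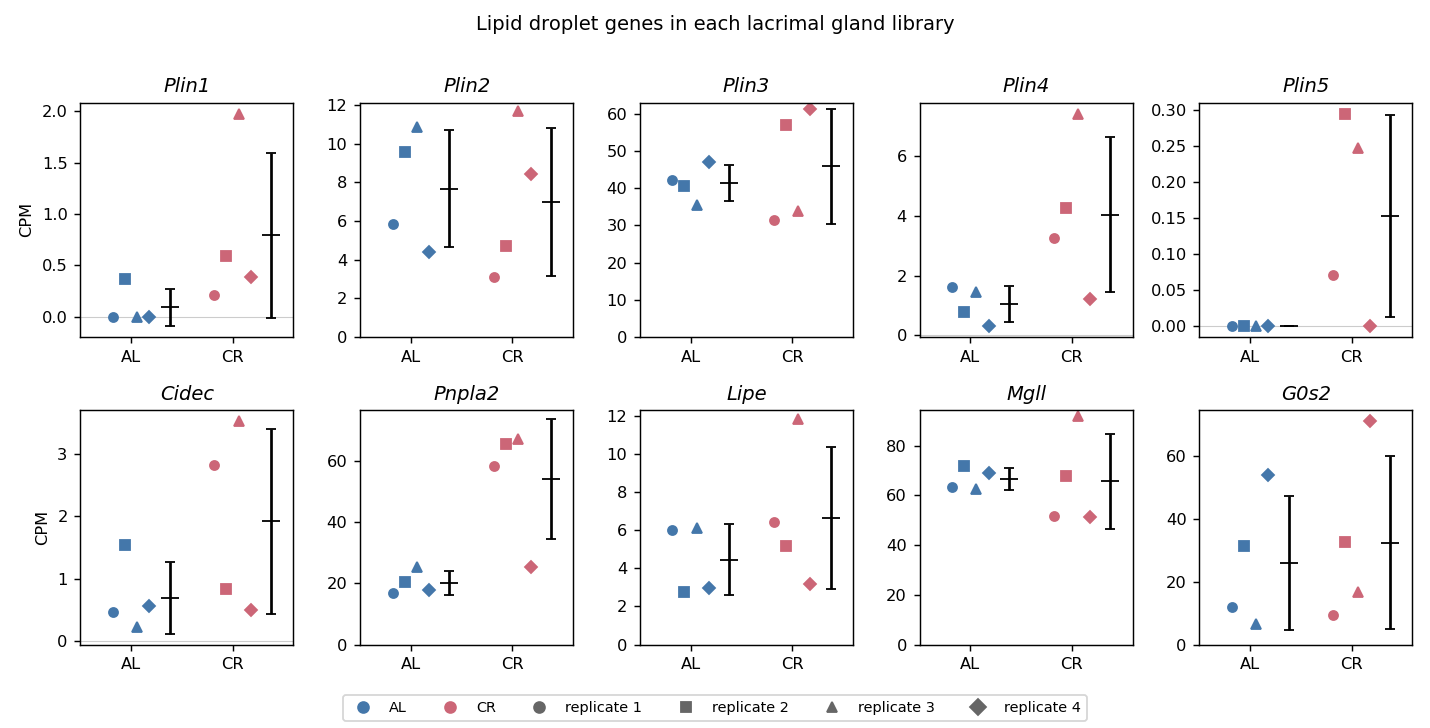
CPM of each of the 10 genes (vertical axis, linear, its own scale per panel) in the 4 AL and 4 CR libraries, with a marker shape for each replicate number and the mean ± SD beside each group. Pnpla2 stood at 58.4 to 67.2 CPM in CR replicates 1 to 3 and at 25.4 CPM in CR replicate 4, while G0s2 was split by replicate number within both diets.

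The promoters of Pnpla2 and Plin4 are shown because these are the 2 genes of the set with an unadjusted p under 0.05, and because their log2 levels had the highest Pearson correlation of any pair of the 8 tested, over the 8 libraries (0.90, a description, since the libraries share the diet difference). The 250 bases before the start site are from RefSeq on GRCm38.p6, and capitals would mark a match to the motifs searched. There was no match in either.
Pnpla2 (chr7:141454938-141455187, plus strand): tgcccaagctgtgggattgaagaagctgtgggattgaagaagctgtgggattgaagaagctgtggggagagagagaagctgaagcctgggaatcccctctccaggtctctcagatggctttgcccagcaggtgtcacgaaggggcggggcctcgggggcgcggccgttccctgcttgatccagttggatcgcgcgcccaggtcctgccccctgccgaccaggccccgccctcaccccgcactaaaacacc
Plin4 (chr17:56109783-56110032, minus strand): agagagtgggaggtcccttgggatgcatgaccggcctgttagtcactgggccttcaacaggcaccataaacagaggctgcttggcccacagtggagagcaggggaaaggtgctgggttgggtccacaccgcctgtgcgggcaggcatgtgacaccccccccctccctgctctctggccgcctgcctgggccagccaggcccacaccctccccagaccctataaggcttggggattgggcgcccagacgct
The search covered both strands, from 250 bases before to 50 after the start, in 14 promoters that RefSeq gives for the 10 genes. The motifs were AGGTCA, the half-site of many nuclear receptors, a direct repeat of it with 1 base between, to which peroxisome proliferator-activated receptors (PPARs) bind, CACGTG, the E-box, and ACANNNTGT, which is part of a glucocorticoid receptor site. AGGTCA lay in 3 of the 14 promoters, which belong to Plin2 and Plin5, and lies in 16.3% of all 32851 promoters. The direct repeat, every match of which also holds AGGTCA, lay in 0 of the 14 and in 0.0396% of all. CACGTG lay in a promoter of each of Plin2, Lipe and Mgll, and in 7.15% of all promoters. ACANNNTGT lay in 1, the second promoter of Lipe, and in 6.85% of all. The matches that lie wholly upstream are shown with 22 bases on each side and the motif in capitals, where TGACCT is AGGTCA read on the other strand.
Plin2 (chr4:86670250-86670299, minus strand): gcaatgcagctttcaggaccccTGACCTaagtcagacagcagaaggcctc
Plin5 (chr17:56117691-56117740, minus strand): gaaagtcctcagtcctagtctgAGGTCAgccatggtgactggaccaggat
Lipe (chr7:25396115-25396164, minus strand): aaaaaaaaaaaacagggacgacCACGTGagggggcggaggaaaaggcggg
Lipe, second promoter (chr7:25390196-25390248, minus strand): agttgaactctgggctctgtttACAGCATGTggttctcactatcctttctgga
Mgll (chr6:88724346-88724395, plus strand): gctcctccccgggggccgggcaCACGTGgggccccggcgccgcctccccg
A match to these letters is a description and was not tested as a binding site.

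Pnpla2 (Gene ID 66853, chr7:141455198-141460743, GENCODE vM21 on GRCm38), the lipase that opens triglyceride breakdown, had 16.9, 20.3, 25.4 and 17.9 CPM in AL replicates 1 to 4 and 58.4, 65.5, 67.2 and 25.4 CPM in CR replicates 1 to 4. CR replicates 1 to 3 lay above every AL library, whereas CR replicate 4 lay just under AL replicate 3, so the groups met at their edges. The means were 20.1 ± 3.81 CPM in AL and 54.1 ± 19.6 CPM in CR (SD, n = 4 each). By edgeR's quasi-likelihood test the log2 fold change was 1.43 (SE 0.28, 95% interval 0.82 to 2.04), a fold change of 2.69, with a Benjamini-Hochberg adjusted p of 0.0277. The call was lost on leaving out AL replicate 1, 2 or 4 or CR replicate 1, 2 or 3, with log2 fold changes of 1.31 to 1.43 and adjusted p of 0.0585 to 0.109 by edgeR. It was kept without AL replicate 3, at 1.55 and an adjusted p of 0.0488, and without CR replicate 4, at 1.66 and an adjusted p of 0.00036 by edgeR.

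Lipe (Gene ID 16890, chr7:25379527-25398710), which acts on the diglyceride that Pnpla2 leaves, had 6.00, 2.76, 6.11 and 2.94 CPM in AL and 6.43, 5.15, 11.8 and 3.16 CPM in CR. Apart from CR replicate 3, each CR library was within or near the AL range. Its log2 fold change was 0.58 (SE 0.41, 95% interval -0.32 to 1.48, edgeR adjusted p 0.536). An exon of Lipe overlaps the gene 4732471J01Rik on the other strand, which had 1.15, 0.490, 0 and 0.608 CPM in AL and 3.67, 2.84, 3.15 and 0.388 CPM in CR, with a log2 fold change of 2.14 (edgeR adjusted p 0.196). Whether the counting used strand is not stated in the sources used here, so reads from the overlap of Lipe and this gene cannot be told apart. Mgll (Gene ID 23945, chr6:88724412-88828360), which finishes the breakdown, had 63.3, 71.7, 62.5 and 69.1 CPM in AL and 51.5, 68.0, 91.9 and 51.2 CPM in CR. The AL libraries were close together and the CR libraries lay on both sides of them. An exon of Mgll overlaps Gm26588 on the other strand, a gene not analysed here, and the same limit on strand applies. Mgll had a log2 fold change of -0.02 (SE 0.20, 95% interval -0.46 to 0.42, edgeR adjusted p 0.978), so a change of the size seen for Pnpla2 lies outside its interval.

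The ratio of Mgll to Pnpla2 within a library does not depend on the scaling, and it was 1.91, 1.82, 1.30 and 1.95 on the log2 scale in AL and -0.18, 0.05, 0.45 and 1.01 in CR. Every CR library, replicate 4 included, was below every AL library, and the mean difference was -1.41, with an exact permutation p of 0.0286, the smallest that 4 against 4 can give. Adjusted over the 9 ratios compared, that p became 0.0857 (exact permutation, two-sided), so no ratio passed the adjusted threshold. The ratio of Lipe to Pnpla2 was lower in CR by a mean of 0.84 with overlap between the groups (difference -0.84, exact permutation p 0.0857, adjusted 0.154).

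**Figure D2:**
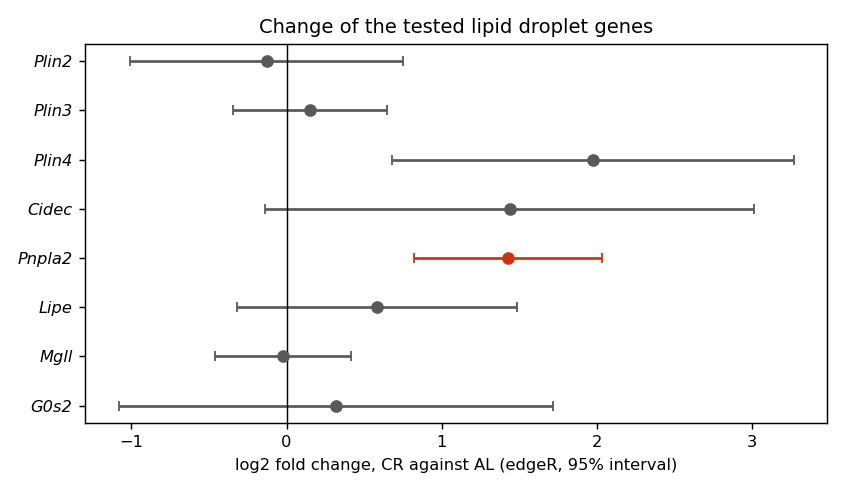
Log2 fold change of CR against AL (horizontal axis) with its 95% interval for the 8 lipid droplet genes tested by edgeR, with the called gene in red. Pnpla2 is at 1.43 and Plin4, whose wider interval also lies above 0, at 1.97.

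G0s2 (Gene ID 14373, chr1:193272161-193273217), the inhibitor of Pnpla2, varied more between libraries of one diet than between diets. It had 12.0, 31.2, 6.62 and 53.9 CPM in AL and 9.26, 32.7, 16.7 and 71.3 CPM in CR, a range of 8.14-fold within AL and 7.70-fold within CR. Replicates 2 and 4 were high and replicates 1 and 3 low in both diets, and in AL the order of G0s2 was also the order of the library totals. The log2 fold change was 0.32 (SE 0.64, 95% interval -1.08 to 1.72, edgeR adjusted p 0.870), an interval wide enough to hold changes of the size of that of Pnpla2. The log2 ratio of G0s2 to Pnpla2 was -0.49, 0.62, -1.93 and 1.59 in AL and -2.65, -1.001, -2.01 and 1.49 in CR, a difference of -0.99 with an exact permutation p of 0.4. It ranged from -0.44 without AL replicate 4 to -1.83 without CR replicate 4 (exact permutation p 0.114). G0s2 was the only gene of the 8 tested with replicates 2 and 4 above replicates 1 and 3 in both diets, as 9.85% of all genes tested were, and Lipe the only one with the opposite order, found in 7.89%. The part of the library total in these levels was not tested.

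Abhd5, the coactivator of Pnpla2, is not a member of the set but belongs to the control of the same enzyme. It had 11.5, 14.0, 8.59 and 9.22 CPM in AL and 14.5, 14.3, 12.2 and 6.27 CPM in CR, and its log2 fold change was 0.12 (SE 0.27, edgeR adjusted p 0.887). Its log2 ratio to Pnpla2 was -0.54, -0.54, -1.56 and -0.95 in AL and -2.01, -2.20, -2.46 and -2.01 in CR. The groups did not overlap, CR replicate 4 included, with a mean difference of -1.27 and an exact permutation p of 0.0286 (adjusted over 9 ratios, 0.0857).

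**Figure D3:**
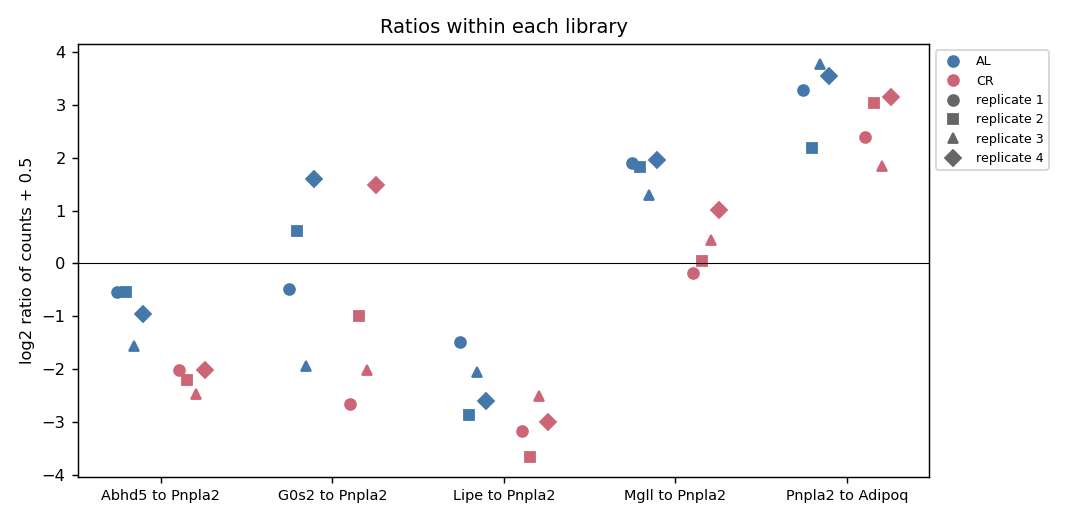
Log2 ratios of counts, with 0.5 count added to each gene, in the 4 AL and 4 CR libraries (vertical axis), with a marker shape for each replicate number. The ratios of Abhd5 and Mgll to Pnpla2 are lower in all 4 CR libraries than in any AL library, and those of G0s2 to Pnpla2 and of Pnpla2 to Adipoq overlap.

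Among the coat proteins, Plin4 (Gene ID 57435, chr17:56100591-56109803), a perilipin abundant in white fat, had 1.62, 0.797, 1.46 and 0.304 CPM in AL and 3.25, 4.26, 7.42 and 1.22 CPM in CR. CR replicates 1 to 3 were above all AL libraries and CR replicate 4 was within their range, the same layout as in Pnpla2. The log2 fold change was 1.97 (SE 0.60, 95% interval 0.68 to 3.27) with edgeR's adjusted p at 0.113, so it was not called. DESeq2, which called 3.14% of 13153 genes higher, gave Plin4 an adjusted p of 0.0214, and edgeR without CR replicate 4 gave a log2 fold change of 2.28 and an adjusted p of 0.0240. Plin4 was not called without any of the other 7 libraries (1.499 to 2.27, edgeR adjusted p 0.146 to 0.308), nor by edgeR with no filter on low counts (adjusted p 0.0631) or by limma voom (adjusted p 0.0698). An exon of Plin4 overlaps Hdgfl2 on the other strand, which had 5.63 to 7.54 CPM in AL and 5.10 to 10.7 CPM in CR and a log2 fold change of 0.07.

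Cidec (Gene ID 14311, chr6:113424634-113435760), which enlarges droplets by passing lipid between them in fat cells, had 0.462, 1.53, 0.218 and 0.557 CPM in AL and 2.83, 0.828, 3.53 and 0.499 CPM in CR. CR replicates 1 and 3 were above every AL library and CR replicates 2 and 4 were within the AL range. Its log2 fold change was 1.44 (SE 0.72, 95% interval -0.14 to 3.01, edgeR adjusted p 0.351), and without AL replicate 2, the highest of AL, it was 2.17 (edgeR adjusted p 0.245).

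Plin1 (Gene ID 103968, chr7:79720218-79732903), the perilipin of adipocytes, had too few counts to enter the test across genes: 0, 6, 0 and 0 counts in AL and 3, 10, 32 and 7 counts in CR. It was found in 1 of 4 AL libraries and in all 4 CR libraries, and AL replicate 2 lay above CR replicate 1 on the CPM scale. The pooled level was 0.0956 CPM in AL and 0.797 CPM in CR, a ratio of 8.34, and the difference in mean log2 CPM, with 0.5 count added, was 3.29 with an exact permutation p of 0.0571. With 1 count added it was 2.60 (exact permutation p 0.0571). Without AL replicate 2, the only AL library with Plin1 counts, it was 4.19 (exact permutation p 0.0286). The groups then no longer overlap, so that p is the smallest that 3 against 4 can give. Leaving out any other library gave 2.70, without CR replicate 3, to 3.71 (exact permutation p 0.0571 to 0.0857). Fitted across all genes, Plin1 had an adjusted p of 0.264 by edgeR with no filter on low counts and of 0.153 by DESeq2. Plin5 (Gene ID 66968, chr17:56111601-56117596), known from oxidative tissues, had 0 counts in every AL library and 1, 5, 4 and 0 counts in CR. Its pooled CR level of 0.153 CPM, from 10 counts, was 3.21 times a floor of 3 counts set over the whole AL group. That figure allows for no counting error in CR and is not a lower bound. The difference in mean log2 CPM, which rests on the 0.5 count added to counts of 0, was 1.98. Its exact permutation p was 0.114, and with 1 count added the difference was 1.41. Without CR replicate 4, the CR library at 0, that difference was 2.72 (exact permutation p 0.0286). This is again the smallest p possible, since every AL count was 0 and no CR count was. Without any other library the difference was 1.53 to 2.07 (exact permutation p 0.114 to 0.143). Plin5 had an adjusted p of 0.312 by edgeR with no filter, and DESeq2 gave none. Plin4 and Plin5 are neighbours on chromosome 17, on the same strand and 1797 bases apart, and Plin3 lies 159879 bases from the nearer of them.

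The perilipins of most cell types did not pass the test. Plin2 (Gene ID 11520, chr4:86648386-86670060) had 5.85, 9.56, 10.8 and 4.41 CPM in AL and 3.11, 4.73, 11.7 and 8.43 CPM in CR, so that both the lowest and the highest library were CR. Its log2 fold change was -0.13 (SE 0.40, 95% interval -1.01 to 0.75, edgeR adjusted p 0.923). Plin3 (Gene ID 66905, chr17:56277476-56292873) had 42.1, 40.7, 35.6 and 47.1 CPM in AL and 31.4, 57.1, 34.0 and 61.4 CPM in CR. The CR libraries split into replicates 2 and 4 above all of AL and replicates 1 and 3 below it, and the log2 fold change was 0.15 (SE 0.23, 95% interval -0.35 to 0.65, edgeR adjusted p 0.815). The log2 ratio of Plin3 to Plin2 was 2.51 ± 0.761 in AL and 2.82 ± 0.910 in CR (SD, n = 4 each, exact permutation p 0.657). That of the adipocyte perilipin Plin1 to Plin2 was -7.26, -4.59, -8.22 and -7.45 in AL and -3.67, -2.94, -2.54 and -4.35 in CR, without overlap (difference 3.51, exact permutation p 0.0286, adjusted 0.0857). In 3 of 4 AL libraries this ratio rests on the 0.5 count added to a Plin1 count of 0, and with 1 count added the difference was 2.82.

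The summed level of adipocyte markers was high in the 3 CR libraries in which Pnpla2 and Plin4 were high. Of 12 adipocyte markers 8 were tested, 7 with an upward and 1 with a downward fitted change, and 1 was called, the carbonic anhydrase Car3 (log2 fold change 2.83, edgeR adjusted p 0.00697). Adipoq, the hormone adiponectin of fat cells, had 1.69, 4.47, 1.82 and 1.52 CPM in AL and 11.1, 7.98, 18.7 and 2.83 CPM in CR (log2 fold change 2.09, edgeR adjusted p 0.0635). The order of libraries resembles that of Pnpla2, Plin4 and Cidec in that CR replicate 4 was the lowest of CR. Leptin (Lep) had 0 counts in all AL libraries and at most 0.118 CPM in CR, under the floor, and the brown fat gene Ucp1 was at 0 in 6 of 8 libraries and at most 0.123 CPM. Of the 5 brown adipocyte markers 1 was tested, Cox7a1, with 0.101 to 0.613 CPM in AL and 0.742 to 2.69 CPM in CR and the groups apart (log2 fold change 2.32, edgeR adjusted p 0.0927), and the 5 summed to 0.203 to 2.33 CPM in AL and 2.10 to 4.66 CPM in CR. The log2 ratio of Pnpla2 to Adipoq was 3.29, 2.18, 3.78 and 3.53 in AL and 2.39, 3.03, 1.85 and 3.15 in CR, and that of Plin1 to Adipoq was -5.49, -3.50, -5.67 and -5.93 in AL and -5.49, -3.69, -3.22 and -2.78 in CR. Neither ratio separated the diets (differences -0.59 and 1.35, exact permutation p 0.229 and 0.171), and the ratio of Cidec to Plin1 differed by -1.96 (exact permutation p 0.0857, adjusted 0.154). With 1 count added the difference was 0.69 for Plin1 to Adipoq and -1.34 for Cidec to Plin1. As first computed, that of Cidec to Plin1 was -2.71 without CR replicate 1 and -1.54 without AL replicate 4 (exact permutation p 0.0571 and 0.171).

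The mean log2 level of the 6 parotid transcripts was 0.11 to 6.90 in AL, 9.80 to 12.9 in CR replicates 1 to 3 and 9.14 in CR replicate 4. With the mean log2 level of the 8 adipocyte markers as a covariate, edgeR gave Pnpla2 a log2 fold change of 0.18 (SE 0.30, adjusted p 0.896), Plin4 -0.14, Cidec -1.04 and Lipe -0.80. With that of the 6 parotid transcripts, Pnpla2 had 0.94 (SE 0.56, edgeR adjusted p 0.538) and Plin4 0.34. Mgll was at -0.58 and Plin2 at -0.30 with the adipocyte score. With the parotid score these were at 0.13 and 0.09, above their values without a covariate. Higher values than without a covariate also came for G0s2, Plin3 and Cidec. G0s2 was at 1.70 with the adipocyte score and 2.85 with the parotid score (SE 0.84 and 0.99, edgeR adjusted p 0.642 and 0.346). Plin3 was at 0.72 and 0.34 (edgeR adjusted p 0.612 and 0.795). Cidec was at 2.05 with the parotid score (SE 1.64, edgeR adjusted p 0.654). Both scores differ between the diets, so that the diet term and the score compete for the same difference, and over all genes only 1 and 4 genes were called higher in these fits and 0 lower. Parotid transcripts had an upward fitted change in 6 of 6, with 3 called. Skeletal muscle markers had an upward fitted change in 5 of 5 tested, with 0 called by edgeR and 2 at an unadjusted p under 0.05, and summed to 61.8 and 45.0 CPM in CR replicates 2 and 4 beside 1.04 to 12.9 CPM in the other libraries. All 10 macrophage markers, from cells that also hold Plin2-coated droplets, had a downward fitted change, and 1, the lysozyme gene Lyz2, was called (log2 fold change -1.48, edgeR adjusted p 0.0312, called in 2 of 8 fits without 1 library and at -0.36 with the parotid covariate), with sums of 106 to 279 CPM in AL and 64.1 to 116 CPM in CR. What these other cells contribute to the lipid droplet genes was not tested.

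**Figure D4:**
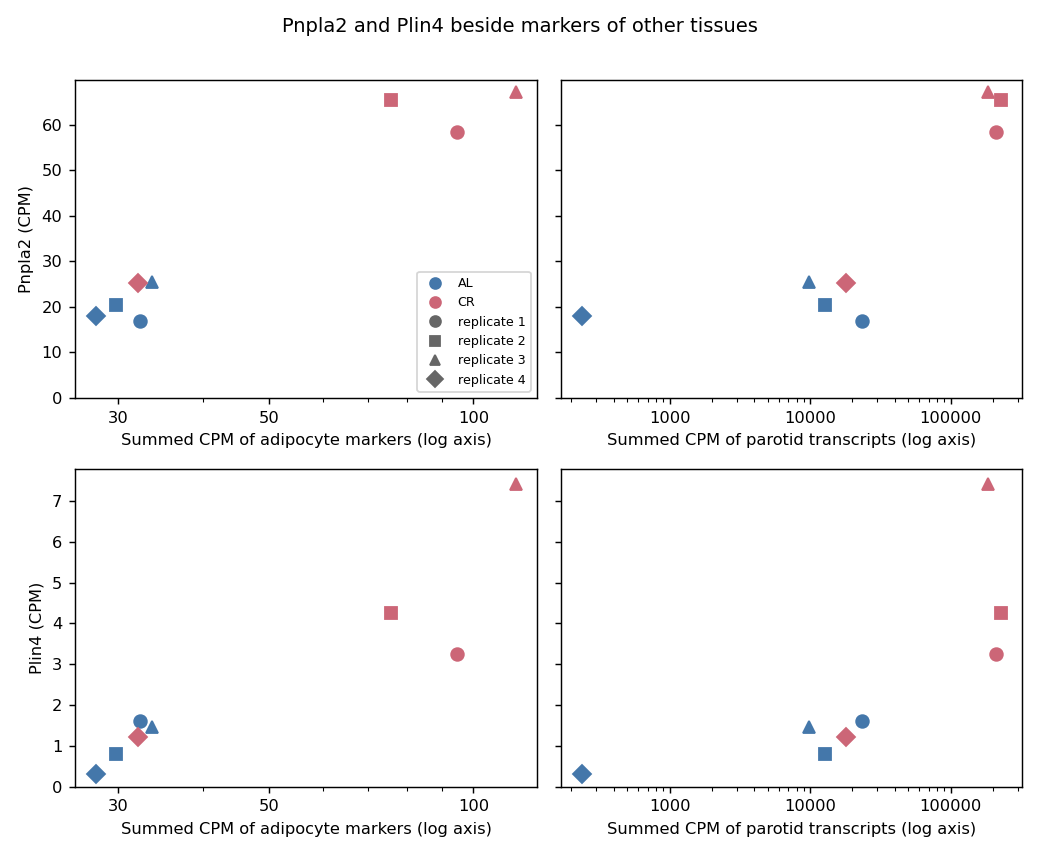
CPM of Pnpla2 (upper panels) and Plin4 (lower panels) against the summed CPM of 12 adipocyte markers (left) and 6 parotid transcripts (right), both on log axes, in the 4 AL and 4 CR libraries. CR replicate 4 lies among the AL libraries in these panels, and CR replicates 1 to 3 lie apart at the upper right, but the parotid sum is carried by 2 genes, and on the mean log2 level of the 6 transcripts CR replicate 4 (9.14) lies above every AL library (at most 6.90).

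Of the wider control of lipolysis, 4 genes were called higher in CR. Of the 15 genes of this list 11 were tested, 9 with an upward and 2 with a downward fitted change, and the median log2 fold change was 0.50. The beta-1 adrenergic receptor Adrb1, which starts the signal to protein kinase A, had 2.16, 1.35, 2.62 and 0.862 CPM in AL and 27.6, 34.2, 24.6 and 4.55 CPM in CR, a log2 fold change of 3.72 (edgeR adjusted p 0.00697) with the groups apart. Adora1, the adenosine receptor that opposes it, had 2.16, 2.33, 1.82 and 0.304 CPM in AL and 46.2, 46.0, 51.4 and 2.11 CPM in CR (log2 fold change 4.49, edgeR adjusted p 0.0197). Again CR replicate 4 was far below the other CR libraries, and for Adora1 it was within the AL range. Pde3b, the phosphodiesterase through which insulin restrains lipolysis, rose by 2.13 on the log2 scale (edgeR adjusted p 0.0390), from 0.946 to 1.42 CPM in AL to 2.11 to 9.64 CPM in CR. Fabp4, a carrier of freed fatty acids in adipocytes, had 2.23, 4.66, 2.33 and 7.25 CPM in AL and 11.2, 30.4, 30.9 and 13.6 CPM in CR, with the groups apart (log2 fold change 2.37, edgeR adjusted p 0.0208). The beta-3 receptor Adrb3, typical of rodent fat, was too rare to test and had at most 0.887 CPM.

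The enzymes that fill droplets showed 1 called gene. Of 14 genes of triglyceride synthesis 11 were tested, 7 with an upward and 4 with a downward fitted change, with a median log2 fold change of 0.32. Dgat2, which adds the last fatty acid, had 0.693, 1.29, 0.655 and 0.710 CPM in AL and 5.86, 3.96, 1.73 and 2.72 CPM in CR, with the groups apart (log2 fold change 2.08, edgeR adjusted p 0.0439). Dgat1, which does the same step, had a log2 fold change of 0.22 (edgeR adjusted p 0.721). Among 15 genes of droplet formation and other coat proteins, 14 were in the table under their symbols and 11 tested, 7 with an upward and 4 with a downward fitted change, 0 called by edgeR and 2 at an unadjusted p under 0.05. The smallest p in that list belonged to seipin, Bscl2 (log2 fold change 0.69, edgeR adjusted p 0.107), and to Hilpda, an inhibitor of Pnpla2 besides G0s2 (log2 fold change 0.72, edgeR adjusted p 0.190).

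Among 18 other lipid hydrolases 10 were tested, 5 with an upward and 5 with a downward fitted change, and 1 was called. Pnliprp1, a relative of pancreatic lipase, fell from 206, 123, 85.7 and 244 CPM in AL to 0.495, 7.75, 0.309 and 2.83 CPM in CR. Every CR library was far below every AL library (log2 fold change -5.84, edgeR adjusted p 0.00550). With 1 library left out, the log2 fold change of Pnliprp1 was -7.03 to -5.46. Ces1d, a carboxylesterase that hydrolyses triglyceride in adipocytes and liver, had 1.46, 10.5, 1.09 and 31.1 CPM in AL and 5.23, 41.3, 11.9 and 94.6 CPM in CR (log2 fold change 1.78, edgeR adjusted p 0.401), with replicates 2 and 4 above replicates 1 and 3 in both diets as in G0s2 (chosen after its values were seen). Of the 7 PPARs, partners and coactivators, all tested, 6 had an upward and 1 a downward fitted change, and 1 was called, the coactivator Ppargc1a, with 5.93, 3.31, 2.04 and 0.659 CPM in AL and 23.5, 32.1, 25.6 and 3.44 CPM in CR (log2 fold change 2.85, edgeR adjusted p 0.0497), CR replicate 4 being within the AL range. Pparg, the receptor of fat cell formation, had at most 0.659 CPM in AL and 0.353 to 2.05 CPM in CR (edgeR adjusted p 0.501). Among the genes called in the pathway lists, Adrb1 and Pnliprp1 were called in all 8 fits that left out 1 library, Adora1 and Fabp4 in 3 of 8, and Dgat2, Pde3b and Ppargc1a in 1 of 8. With the adipocyte covariate the log2 fold change was 0.07 for Adora1, 0.12 for Ppargc1a, 1.32 for Adrb1, 1.12 for Pde3b, 1.52 for Fabp4, 1.88 for Dgat2 and -5.01 for Pnliprp1. With the parotid covariate it was 1.99, 0.09, 1.57, 1.19, 3.57, 1.45 and -6.15 for the same genes in that order. The median log2 fold changes were 0.19 for droplet formation, 0.07 for the other hydrolases and 0.39 for the PPAR list, beside 0.01 for all genes tested.

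The genes whose log2 CPM followed each member most closely over the 8 libraries were, for Pnpla2, Fmo2 (Pearson's r 0.992), Klc3 and Ppm1a, and for Plin4, Git1 (0.974), Ano10 and Glrx2. For G0s2 they were the RNA gene Snhg8 (0.994), Snx3 and Krt10, for Plin3 they were Snrpb (0.973), Vta1 and Mfsd14a, and for Plin2 they were Spata5 (0.962), Trafd1 and Vill. Cidec was followed by Rhot2 (0.961), Ndufb11 and Xpc, Lipe by Ltbr (0.958), Ubxn6 and Etfb, and Mgll by Kansl1l (0.954), Retreg3 and Riox1. Each is the best of all genes tested, over 8 libraries that share the diet difference, and is given as a description. Within the diets, after the group means were removed, r was 0.974 for Pnpla2 with Fmo2 and 0.995 for G0s2 with Snhg8.

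**Figure D5:**
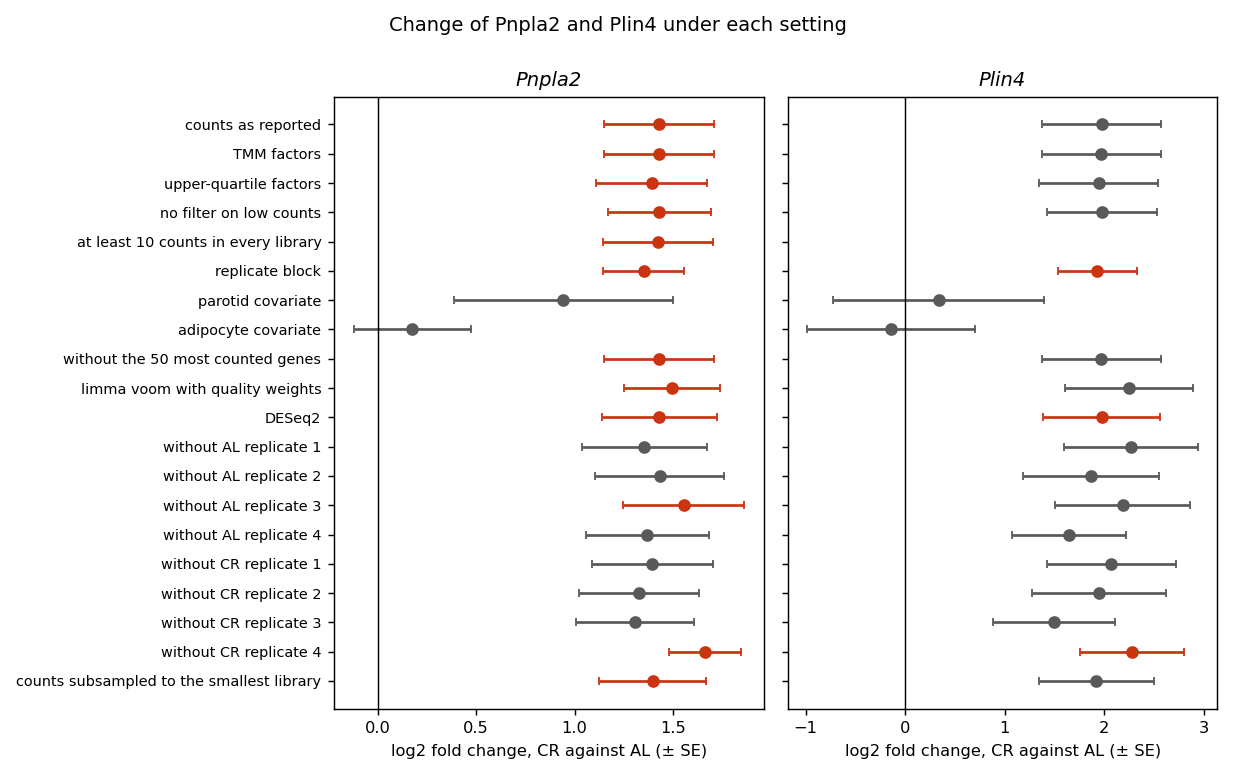
Log2 fold change ± SE of Pnpla2 and Plin4 (horizontal axis) under each setting of the analysis (vertical axis), in red where the adjusted p was under 0.05. The fold change of Pnpla2 stays between 1.31 and 1.66 when a library is left out, and that of Plin4 between 1.499 and 2.28, and both are nearest 0 with the adipocyte covariate.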

How the data were processed

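LG RNA of the AL and CR groups was made into 4 libraries each of 3' ends with the Lexogen QuantSeq FWD kit and read as single 75-base reads. Per the labels and the study's methods, cutadapt trimmed the reads, STAR placed them on mm10 and HTSeq made the raw counts per gene that the authors deposited. The log2 values they also deposited, counts divided by DESeq2's RLE factor plus 1, were not used. Here, 5 repeated symbols were dropped, which left 24552 genes, and 11211 passed edgeR's filterByExpr. The libraries were scaled with RLE factors and compared by edgeR 4.0.16 in R 4.3.3 (glmQLFit and glmQLFTest, no covariate, Benjamini-Hochberg adjustment). The SE follows from the fold change and F, and intervals use the t quantile on the test's degrees of freedom. The biological coefficient of variation was 34.7%. Plin1 and Plin5, which failed the filter, and the 9 ratios were compared by two-sided exact permutation tests with 0.5 count added. Other settings tried were DESeq2 1.42.0, limma 3.58.1 voom with quality weights, TMM factors, upper-quartile factors, other filters, no fold threshold, a replicate block, each library left out, parotid and adipocyte covariates, leaving out the 50 most counted genes and, chosen after seeing the data, counts subsampled to the smallest library. The pipeline was tested on simulated data.

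The genes of the set and of the lists were chosen with earlier results of these data known. Named are the 10 members, genes of the 5 pathway lists past the thresholds or, where none passed in a list, the 2 with the smallest p, the 3 genes most correlated with each tested member, the markers Adipoq, Lep and Ucp1, the coactivator Abhd5 used in a ratio, and, after their values were seen, Adrb3, Dgat1, Pparg, Ces1d and single genes of the other marker lists, which are otherwise given by their sums. The last 600 bases of the members' GENCODE vM21 transcripts were cut into windows of 75 bases: 29 of 2652 windows of Plin2, or 1.09%, also lie in another gene, and 0 of the other members'. Positions are of GRCm38, the build the authors name mm10, and promoters are from RefSeq. Protein sequences, the cornea and the conjunctiva were not analysed here.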

Additional observations from a re-analysis of the deposited data

Results flagged for a closer look

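Among 19 sets of 4 libraries for the genes and 18 for the ratios, checked for a library far from the other 3, by a rule that chance meets in about 1 of 20 sets, 2 stood out. Plin1 was at 0.368 CPM, or 6 counts, in AL replicate 2 and at 0 in the other 3 AL libraries. With those at 0, any count in the remaining library meets the rule. The log2 ratio of Cidec to Plin1 was 3.53 in CR replicate 1 and between 0.34 and 0.82 in the other 3 CR libraries.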

How the results depend on the processing

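Under TMM factors, upper-quartile factors, a minimum of 10 counts, no fold threshold, no 50 most counted genes and subsampled counts (chosen after seeing the data), the counts of called genes stayed within 1.5 times those reported and Pnpla2 stayed the only member called. More genes were called with no filter on low counts (271 higher and 165 lower), limma voom (237 and 160) and DESeq2 (413 and 316, 2 members higher, with Plin4 added). With the parotid covariate 4 genes were called higher and 0 lower, with the adipocyte covariate 1 and 0, and 0 members in either. Signs turned for members that were not called: with the parotid covariate Plin2 was at 0.093, Lipe -0.13 and Mgll 0.13, with the adipocyte covariate Plin4 was at -0.14, Cidec -1.04 and Lipe -0.80, and with limma voom G0s2 was at -0.069 (the cause was not tested). Leaving out 1 library gave 35 to 418 genes higher, 24 to 239 lower and 0 to 2 members higher, with fewer libraries in each fit, and log2 fold changes of -0.49 to 0.12 for Plin2, -0.022 to 0.30 for Plin3, 0.96 to 2.17 for Cidec, 0.15 to 0.82 for Lipe, -0.23 to 0.083 for Mgll and -0.42 to 0.96 for G0s2.

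The replicate numbers of the labels were checked as pairs. Deviations of libraries with the same number correlated at 0.131, 0.067, 0.22 and 0.429, all above 0. AL replicate 3 correlated better with CR replicate 1 (0.289) than with its own number, so the numbers were not taken as pairs. What libraries of the same number share was not tested. With the replicate number as a block, 388 genes were called higher and 312 lower, and 2 members higher. Plin4 was added, at 1.93 (SE 0.40, edgeR adjusted p 0.0145). In that fit G0s2 was at 0.35 (SE 0.23, edgeR adjusted p 0.423). Without 1 library, the ratio of Abhd5 to Pnpla2 differed by -1.49 to -1.15, that of Mgll to Pnpla2 by -1.63 to -1.24 and that of Plin1 to Plin2 by 3.06 to 4.27, each with an exact permutation p of 0.0286 to 0.0571. For the ratios, 4 sign flips cannot give an exact p under 0.125. At this depth, Plin1 and Plin5 lay near or under the floor of 3 counts in most AL libraries. In CR, Plin5 had at most 5 counts in a library and Plin1 had 3 in replicate 1, also near or under that floor.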

Other observations

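Several genes of the lipid lists were not called but had a p under 0.05 before adjustment, and they are given as values. Prkacb, a catalytic subunit of protein kinase A, had 14.8, 14.8, 16.9 and 9.88 CPM in AL and 44.2, 34.2, 35.7 and 13.1 CPM in CR. Its log2 fold change was 1.17 (edgeR adjusted p 0.0810), with CR replicate 4 again the lowest of CR. Prkaca, the other catalytic subunit listed, did not reach that unadjusted level. It had 36.0 to 50.3 CPM in AL and 38.3 to 46.5 CPM in CR (log2 fold change -0.05, edgeR adjusted p 0.925). Prkar2b, a regulatory subunit of the same kinase, had 18.8 to 22.2 CPM in AL and 26.1 to 35.3 CPM in CR, with the groups apart (log2 fold change 0.50, edgeR adjusted p 0.143). Prkar1a, another regulatory subunit, was apart in the opposite direction, with 41.9 to 52.0 CPM in AL and 33.7 to 40.3 CPM in CR (log2 fold change -0.35, edgeR adjusted p 0.272). Agpat2, an enzyme of triglyceride synthesis, had 3.31 to 4.56 CPM in AL and 5.33 to 9.46 CPM in CR, also apart (log2 fold change 0.89, edgeR adjusted p 0.104). Among the lipid enzymes with a downward change, Lipa, the acid lipase of lysosomes, had 2.46 to 8.23 CPM in AL and 1.63 to 2.96 CPM in CR (log2 fold change -1.15, edgeR adjusted p 0.141), and the phosphatidate phosphatase Lpin2 had 6.13 to 15.9 CPM in AL and 3.19 to 7.28 CPM in CR (log2 fold change -1.05, edgeR adjusted p 0.162). These genes were chosen after their values were seen.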
